A study of Mus musculus with 20 samples.

Results

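The miR-34 and miR-449 family was followed in mouse serum by small RNA sequencing. Its members were chosen by name, mmu-miR-34a-5p, mmu-miR-34b-5p, mmu-miR-34b-3p, mmu-miR-34c-5p, mmu-miR-34c-3p and mmu-miR-449a-5p (written without the species prefix below), which are 6 of 1915 mature names in the count table. The serum came from female mice of 4 groups with 5 libraries each, all of the Ames dwarf stock, which has a heterogeneous genetic background. Young normal and young Ames dwarf mice were 5 to 6 months old, and old normal and old Ames dwarf mice were 21 to 22 months old. Ames dwarf mice lack growth hormone, prolactin and thyrotropin and are long-lived, so the comparison asks how circulating small RNAs change with age in normal and long-lived animals. The control mice are called only normal in the labels. Whether each library of a group is a different animal is also not given there, so the tests measure the spread between libraries and nothing wider.

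The family is known for its tie to the tumour suppressor p53, which binds the promoters of the mir-34a and mir-34b/c genes and raises their transcription after DNA damage. Its mature strands repress genes of cell cycle entry and survival, and mir-34b/c and mir-449 are abundant in male germ cells and in multiciliated epithelia such as those of the airway and oviduct, where they take part in the formation of cilia. A hairpin precursor is cut into a 5p and a 3p strand, one of which is usually retained, and the seed, bases 2 to 8 of the mature strand, sets which messenger RNAs it pairs with.

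The mature sequences are given 5′ to 3′ with the seed in capitals, because the seed divides the members into a pair of groups with different predicted pairing. They are from RefSeq on GRCm38.p6, which held 5 of the 6 members. It had no mature entry for miR-34c-5p, so that sequence is not shown and its seed was not read here. The 5p strands share the seed GGCAGUG:
miR-34a-5p: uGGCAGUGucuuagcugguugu
miR-34b-5p: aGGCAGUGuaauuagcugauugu
miR-449a-5p: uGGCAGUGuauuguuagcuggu
miR-449c-5p: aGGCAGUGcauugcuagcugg
The 3p strands share the seed AUCACUA:
miR-34b-3p: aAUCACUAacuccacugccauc
miR-34c-3p: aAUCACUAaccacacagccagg
miR-449c-5p is shown as a further strand with the same seed and is not one of the 6 members. The seed GGCAGUG was carried by 4 of 1679 mature names in that table (0.238%) and AUCACUA by 2 (0.119%). These counts cannot include miR-34c-5p, which was absent from it. Between miR-34a-5p and miR-449a-5p, 15 of 22 positions were identical. The 3p strands of mir-34b and mir-34c were identical at 17 of 22 positions and differed by U11C, C12A, U16A, U21G and C22G, counted from the 5′ end with the miR-34b-3p base first.

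The members come from 3 places in the genome (GRCm38, GENCODE M21). Mir34b (chr9:51103562-51103645, minus strand) and Mir34c (chr9:51103034-51103110, minus strand) lie 451 bases apart, opposite an intron of Btg4, and are known to be made from 1 primary transcript. Mir34a (chr4:150068454-150068555, plus strand) lies in an exon of the noncoding gene Gm37795. Mir449a (chr13:113037534-113037624, plus strand) lies in an intron of Cdc20b, beside Mir449b and Mir449c.

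Each library held between 1343137 and 4710263 reads assigned to mature miRNAs, so 1 read was 0.212 to 0.745 per 1000000 reads of its library. Levels are given as CPM, the counts of a miRNA per 1000000 counts of its library after TMM scaling. Of the mature names, 1191 had at least 1 read and 360 passed the filter on low counts and were tested, among them 5 of the 6 members. miR-34b-5p did not pass the filter. Serum held the miRNAs of red cells in large amounts: 4 erythroid markers summed to 153675 to 517758 CPM over the 20 libraries. The haemolysis index, log2 of the ratio of miR-451a (red cells) to miR-23a-3p, was 4.30 ± 0.70 (SD, n = 5) in old normal serum and 5.38 ± 0.44 in old dwarf serum, and the ranges of 3.13 to 4.83 and 4.90 to 6.09 did not overlap. The index was 5.45 ± 0.61 in young normal and 5.40 ± 0.43 in young dwarf serum. Between the old groups the summed erythroid markers went the other way, with a median of 401336 CPM in old normal and 289042 CPM in old dwarf serum. Their ranges of 343971 to 517758 and 244499 to 497691 CPM overlapped. Taken singly, 3 of the 4 erythroid markers were higher in old dwarf serum (median log2 difference 0.60), and none passed by edgeR.

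The family was a small part of serum miRNA, with 2156 reads in all libraries together. miR-34c-5p was the most abundant member with 1234 reads, followed by miR-34b-3p with 334, miR-34a-5p with 195, miR-34c-3p with 189, miR-449a-5p with 152 and miR-34b-5p with 52. By mean CPM, miR-34c-5p ranked 191 of the 360 tested miRNAs, and the other tested members ranked from 281 (miR-34b-3p) to 351 (miR-449a-5p). The strand with more reads differed between the neighbouring hairpins, since mir-34c gave more reads from its 5p strand and mir-34b more from its 3p strand.

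**Figure D1:**
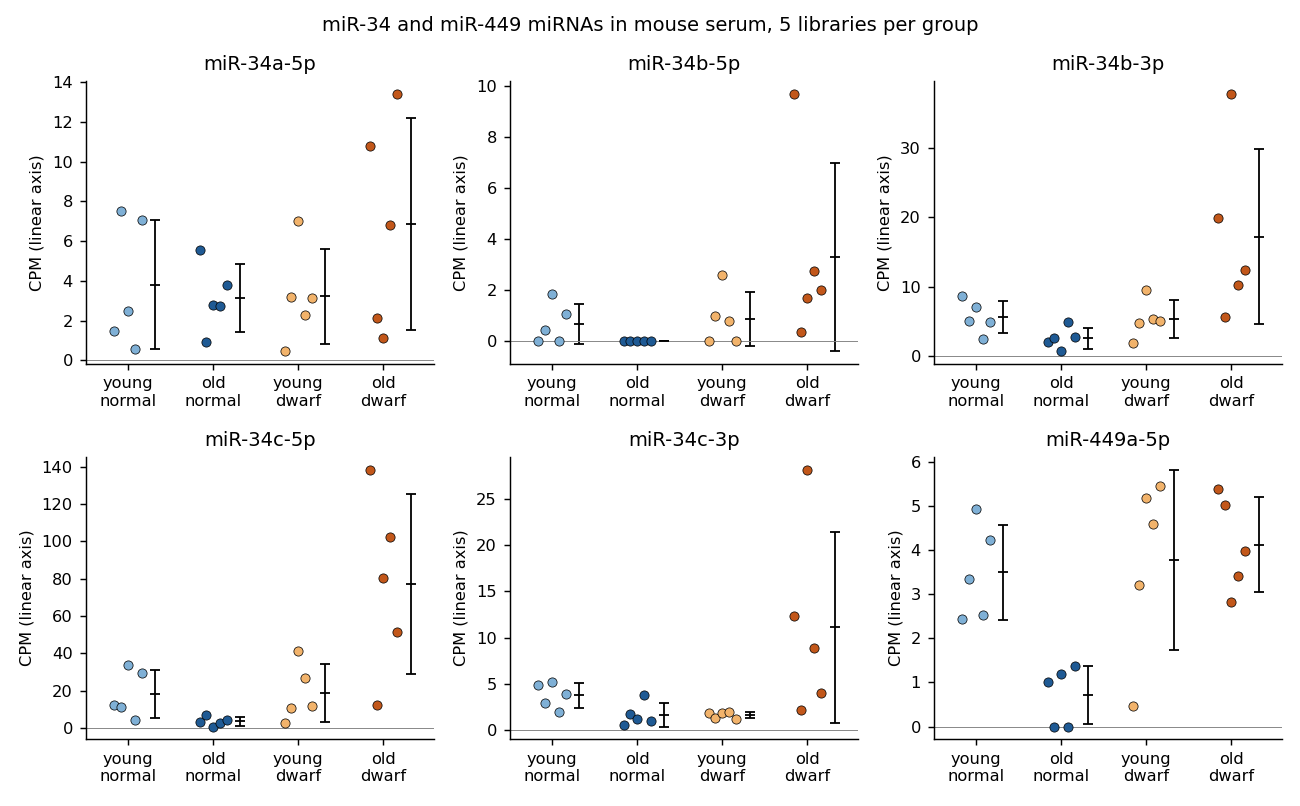
Level of each of the 6 members (CPM, linear axis) in every library, by group; each point is 1 library and the bar beside each group is its mean ± SD (n = 5). miR-34c-5p lay between 12.5 and 138 CPM in old dwarf serum and between 0.795 and 7.16 CPM in old normal serum.

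miR-34c-5p, the 5p strand of mir-34c, was high in old dwarf serum and low in old normal serum. Its level in the old dwarf libraries 1 to 5 was 138, 12.5, 80.6, 102 and 51.2 CPM. In the old normal libraries it was 3.02, 7.16, 0.795, 2.72 and 4.46 CPM. Every old dwarf library lay above every old normal library, although old dwarf library 2 stood well below the other 4. The young normal libraries held 12.1, 11.3, 33.9, 4.50 and 29.3 CPM. The young dwarf libraries held 2.85, 10.6, 41.4, 26.8 and 11.7 CPM. The ranges of the young groups overlapped for most of their width, and both young groups held libraries within the range of either old group. The mean was 77.0 ± 48.1 CPM (SD, n = 5) in old dwarf mice. It was 3.63 ± 2.37 CPM in old normal, 18.7 ± 15.4 CPM in young dwarf and 18.2 ± 12.6 CPM in the young normal group.

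The old dwarf mean of miR-34c-5p was 21.2 times the old normal mean, and the fitted difference was 4.45 ± 0.78 (log2, SE; edgeR adjusted p = 0.00304), the smallest p of the 360 miRNAs in this comparison. With age the strand fell by 2.38 ± 0.74 on the log2 scale in normal serum (edgeR adjusted p = 0.0323), where 4 of 5 old libraries lay below every young one. In dwarf serum its difference with age was 2.03 ± 0.67 (edgeR adjusted p = 0.470), with 4 of 5 old libraries above every young one, and did not pass the test. Between the young groups the difference was 0.04 ± 0.65 (edgeR adjusted p = 0.988).

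miR-34c-3p, the other strand of the same hairpin, was lower in level but higher in old dwarf serum as well. Its old dwarf libraries held 12.4, 2.15, 28.2, 8.87 and 3.98 CPM. The old normal libraries held 0.503, 1.79, 1.19, 3.81 and 1.03 CPM, so 4 of the 5 old dwarf libraries lay above all of them. Young dwarf libraries held 1.90, 1.28, 1.85, 1.91 and 1.17 CPM (4, 4, 5, 5 and 3 reads) and lay below every old dwarf library, the lowest of which had 6 reads. The young normal libraries held 4.85, 2.93, 5.23, 1.97 and 3.88 CPM and all lay above every young dwarf library. The lowest young normal library, at 1.97 CPM, had 7 reads. Both separations thus rest on few reads in the nearest libraries. Its mean of 11.1 ± 10.4 CPM (SD, n = 5) in old dwarf mice compared with 1.67 ± 1.29 CPM in old normal, 1.62 ± 0.365 CPM in young dwarf and 3.77 ± 1.35 CPM in the young normal group.

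Old dwarf serum exceeded old normal serum in miR-34c-3p by 2.74 ± 0.61 (log2, SE; edgeR adjusted p = 0.00547) and young dwarf serum by 2.73 ± 0.59 (edgeR adjusted p = 0.0292). The young dwarf libraries differed from the young normal libraries by -1.19 ± 0.60 (edgeR adjusted p = 0.618, unadjusted p = 0.0592), which did not pass the test although the groups did not overlap. Old normal serum differed from young normal serum by -1.20 ± 0.62 (edgeR adjusted p = 0.149). The call with age in dwarf serum was lost without old dwarf library 1, 3 or 4 or any 1 of the 5 young dwarf libraries (edgeR adjusted p from 0.0522 to 0.208), and without old dwarf library 3 the difference was 2.02. Without that library the difference from old normal serum was 2.04 (edgeR adjusted p = 0.0112).

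miR-34b-3p, the more abundant strand of mir-34b, was highest in old dwarf serum and lowest in old normal serum, as miR-34c-5p was. The old dwarf libraries held 19.9, 5.73, 37.7, 10.2 and 12.4 CPM, and the old normal libraries 2.01, 2.69, 0.795, 4.90 and 2.75 CPM. The old groups did not overlap, and old dwarf library 3 was the highest. Young normal libraries held 8.74, 5.02, 7.08, 2.53 and 4.94 CPM, and young dwarf libraries 1.90, 4.81, 9.61, 5.36 and 5.07 CPM. Old dwarf serum averaged 17.2 ± 12.6 CPM and old normal serum 2.63 ± 1.49 CPM, while the young groups averaged 5.35 ± 2.76 CPM (dwarf) and 5.66 ± 2.36 CPM (normal; SD, n = 5). The difference between old dwarf and old normal serum was 2.71 ± 0.55 (log2, SE; edgeR adjusted p = 0.00304). With age it was -1.11 ± 0.55 in normal serum (edgeR adjusted p = 0.136) and 1.66 ± 0.50 in dwarf serum (edgeR adjusted p = 0.309), and neither passed the test.

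miR-34b-5p, the sparse strand of mir-34b, had no read in any old normal library. Old dwarf libraries 1 to 5 held 18, 1, 3, 4 and 4 reads, young dwarf libraries 0, 3, 7, 2 and 0 reads, and young normal libraries 0, 1, 6, 0 and 3 reads. All 5 old dwarf libraries thus had a read, against 3 of 5 in each young group. The old dwarf group held 30 reads, or 2.75 per 1000000, against 0 of 13303269 reads in the old normal group. If reads are independent, a count of 0 allows up to 3 reads over the group, or 0.226 per 1000000. The observed old dwarf level was 12.2 times that limit. Library 1 held 18 of the 30 reads, and without it the level was 1.27 per 1000000, or 5.63 times the limit. No lower limit was set for the old dwarf level, so these are not minimum fold differences. A 2-sided exact permutation test on CPM, added after these counts were seen, gave p = 0.00794, the smallest that 5 libraries against 5 can give. Groups that do not overlap in this way fix that p, so the test adds nothing to the counts. It was 0.0317 after adjustment over 4 comparisons of this miRNA alone, not over the 360 miRNAs as for the other members. The exact p was 0.00794 without any 1 old dwarf library and 0.0238 (adjusted 0.0952) without any 1 old normal library. The first is again fixed by the lack of overlap. The second cannot differ between the old normal libraries, which all had 0 reads, so neither adds to the counts. The same exact test gave adjusted p = 0.222 for old against young normal serum and 0.222 for old against young dwarf serum.

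miR-449a-5p, whose gene lies on another chromosome and whose seed is that of miR-34a-5p and miR-34b-5p, was lowest in old normal serum. The old normal libraries held 1.01, 0, 1.19, 0 and 1.37 CPM. Young normal libraries held 2.43, 3.35, 4.93, 2.53 and 4.23 CPM and old dwarf libraries 5.38, 5.02, 2.82, 3.41 and 3.98 CPM, and in both groups every library lay above every old normal one. Young dwarf libraries held 0.474, 3.21, 5.17, 4.60 and 5.45 CPM, with the first far below the other 4. The mean was 0.714 ± 0.665 CPM in old normal serum, against 3.49 ± 1.08 CPM in young normal, 3.78 ± 2.04 CPM in young dwarf and 4.12 ± 1.08 CPM in old dwarf serum (SD, n = 5). It fell by 2.03 ± 0.59 on the log2 scale with age in normal serum (edgeR adjusted p = 0.0233) and the level in old dwarf serum exceeded that in old normal serum by 2.27 ± 0.59 (edgeR adjusted p = 0.0113). The difference with age in dwarf serum was 0.12 (edgeR adjusted p = 0.997).

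miR-34a-5p, the member most often studied as a p53 target, passed no test. Old dwarf libraries held 10.8, 2.15, 1.13, 6.82 and 13.4 CPM and old normal libraries 5.53, 0.896, 2.78, 2.72 and 3.78 CPM, so the groups overlapped. Young normal libraries held 1.46, 7.54, 2.46, 0.563 and 7.05 CPM and young dwarf libraries 0.474, 3.21, 7.02, 2.30 and 3.12 CPM. Old dwarf serum averaged 6.86 ± 5.32 CPM (SD, n = 5), and the other group means lay from 3.14 ± 1.69 CPM (old normal) to 3.81 ± 3.25 CPM (young normal). The difference between the old groups was 1.06 ± 0.71 (log2, SE; edgeR adjusted p = 0.250), and with age it was -0.21 in normal serum (edgeR adjusted p = 0.851) and 1.05 ± 0.69 in dwarf serum (edgeR adjusted p = 0.997). Old dwarf libraries 2 and 3 were the lowest of their group for miR-34a-5p, whereas library 3 was the highest of its group for miR-34b-3p and miR-34c-3p.

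**Figure D2:**
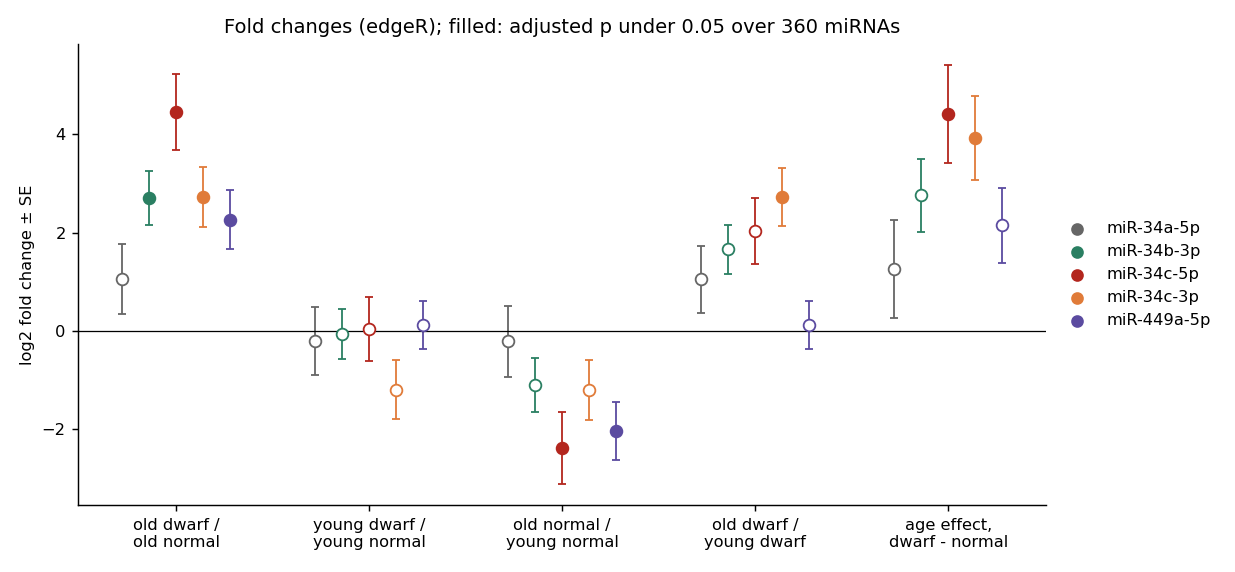
Log2 fold change with its SE for the 5 tested members in 4 comparisons and in the difference of the age effects (dwarf minus normal), from edgeR; filled points passed the adjusted p threshold of 0.05. Between the old groups 4 of 5 passed, all higher in dwarf serum, and between the young groups none passed.

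Counted together, 4 of 5 tested members were called higher in old dwarf serum than in the serum of old normal mice and none lower, where 26.4% of the 360 tested miRNAs were called by the same edgeR test, 16.1% higher and 10.3% lower. miR-34b-3p, miR-34c-5p and miR-34c-3p come from neighbouring hairpins of 1 primary transcript, so the 4 calls are not independent of each other. The median log2 difference was 2.71 for the members and -0.06 for all tested miRNAs. Old dwarf and old normal libraries did not overlap for 3 of the 5 tested members, all higher in old dwarf, against 7.78% of all tested miRNAs higher and 4.72% lower. These 4 members passed the edgeR threshold in each of the 20 fits that left out 1 library, with adjusted p up to 0.0297 (miR-449a-5p). Without the 4 libraries of highest liver miRNAs (young dwarf 3 and 5, old dwarf 4 and 5) 3 of the 5 passed and miR-449a-5p did not (2.40, edgeR adjusted p = 0.0788), and 14 of 373 tested miRNAs were called, against 95 of 360 with all libraries. With the haemolysis index as a covariate none of the 360 miRNAs passed in this comparison. The difference of miR-34c-5p was then 3.75 ± 0.99 (log2, SE, edgeR adjusted p = 0.0930, unadjusted p = 0.00135). That of miR-34b-3p was 2.86 ± 0.69 and that of miR-34c-3p 2.85 ± 0.79 (edgeR adjusted p = 0.0930 each). For miR-449a-5p it was 1.81 ± 0.66 (edgeR adjusted p = 0.142). Without the covariate the SEs were 0.78, 0.55, 0.61 and 0.59 in that order. The index did not overlap between the old groups, so this fit can hardly tell the index and the group apart.

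Beside the family, other markers moved between the old groups. The 3 lymphocyte miRNAs (miR-150-5p, miR-342-3p and miR-155-5p) were lower in old dwarf serum, 3 of 3 past the edgeR threshold, with summed levels of 667 to 1444 CPM against 1580 to 4963 CPM in old normal serum. Of 9 tested epithelial miRNAs, 1 was lower (miR-205-5p) and none higher, with sums of 793 to 1258 CPM in old dwarf and 672 to 4497 CPM in old normal serum. The median log2 difference of the epithelial list was -1.04, with 3 of 9 above 0. None of the 4 erythroid, 4 liver, 2 muscle and 2 platelet and myeloid markers tested passed there by edgeR. Their medians were 0.60 (erythroid, 3 of 4 above 0), 1.13 (liver, 4 of 4), 1.79 (muscle, 2 of 2) and -0.54 (platelet and myeloid, 0 of 2). The muscle sums were 1975 to 5559 CPM in old dwarf and 314 to 3971 CPM in old normal serum. The liver sums were 9609 to 25752 CPM in old dwarf and 11223 to 15156 CPM in old normal serum. The part of these in the family's differences was not tested. In serum, fewer cells that release a strand and less of it released per cell cannot be told apart.

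In old against young normal serum 2 of 5 tested members fell (miR-34c-5p and miR-449a-5p), none rose, and the member median was -1.20, where 15.6% of all tested miRNAs were called, 10.6% lower and 5.0% higher, and their median was -0.00. miR-449a-5p was the one tested member whose old normal libraries all lay below the young ones, a pattern held by 3.06% of all tested miRNAs, against 4.72% with all old libraries above. The 3 lymphocyte miRNAs rose in the same comparison, 3 of 3. Of the 4 erythroid markers 1 fell (miR-451a) and none rose, with a median of -0.72 and sums of 343971 to 517758 CPM in old and 182621 to 447130 CPM in young normal serum. Neither of the 2 tested muscle markers passed, with a median of -2.13 and sums of 314 to 3971 CPM in old and 1061 to 7554 CPM in young normal serum. The liver, epithelial and platelet and myeloid lists held no call there by edgeR. The part of these markers in the members' changes was not tested. The call of miR-34c-5p was lost without old normal library 1, 3 or 4 or young normal library 3 or 5 (adjusted p up to 0.0955), and that of miR-449a-5p without young normal library 3 or 5 (up to 0.0631). With the haemolysis index as a covariate the differences were -1.63 (edgeR adjusted p = 0.423) and -1.45 (edgeR adjusted p = 0.353). The index was 3.13 to 4.83 in old and 4.66 to 6.29 in young normal serum, so the index and age are hard to tell apart in this fit.

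In old against young dwarf serum 1 of 5 tested members rose (miR-34c-3p) and none fell, with a member median of 1.66 and a median over all tested miRNAs of 0.02. Only 0.556% of the 360 miRNAs were called higher there, namely miR-34c-3p and miR-592-5p. The miR-34c-3p libraries of these groups did not overlap, higher in old dwarf serum, as held for 0.833% of all tested miRNAs. At an unadjusted p under 0.05, 3 of the 5 members were higher in old dwarf serum, where 14 of the 360 tested miRNAs had such a p in either direction. These members were miR-34b-3p, miR-34c-5p and miR-34c-3p, strands of neighbouring hairpins of 1 primary transcript and so not independent. With the haemolysis index, which averaged 5.38 and 5.40 in these groups, as a covariate the difference of miR-34c-3p was 2.72 (edgeR adjusted p = 0.0442). The call was lost with library totals in place of TMM (2.28, edgeR adjusted p = 0.0694), with a replicate block (2.47, 0.101) and without the 4 libraries of highest liver miRNAs (3.08, 0.222), a setting added after the data were seen. The comparisons share groups of libraries, so their calls are not independent of each other.

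Between young dwarf and young normal serum no tested member passed by edgeR or DESeq2, and none had an unadjusted edgeR p under 0.05. Over all 360 miRNAs edgeR called 0.0%, and 28 had an unadjusted p under 0.05. The member median was -0.06 and that of all tested miRNAs -0.04. The non-overlap of miR-34c-3p, lower in young dwarf serum, was a pattern held by 1.11% of all tested miRNAs.

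The age effect itself was compared between genotypes as an interaction, the log2 change with age in dwarf mice minus that in normal mice. It was 4.42 ± 0.998 (log2, SE) for miR-34c-5p and 3.93 ± 0.85 for miR-34c-3p, each with edgeR adjusted p = 0.0472. These 2 strands of 1 hairpin were the whole of the 0.556% called among the 360 miRNAs, and miR-34b-3p came next by p, with 2.77 ± 0.74 (edgeR adjusted p = 0.131). For miR-449a-5p it was 2.15 ± 0.77 (edgeR adjusted p = 0.181) and for miR-34a-5p 1.26 ± 0.99 (edgeR adjusted p = 0.525). Both calls sat near the threshold: leaving out 1 library at a time ended that of miR-34c-3p in 16 of 20 fits (all but without old dwarf library 2 or 5, old normal library 4 or young normal library 4) and that of miR-34c-5p in 17 of 20 (all but without old dwarf library 2, young dwarf library 3 or young normal library 4). The edgeR adjusted p reached 0.122, and the differences were 3.23 (without old dwarf library 3) to 4.53 (without old normal library 4) for miR-34c-3p and 4.08 to 4.91 for miR-34c-5p. DESeq2 called 20 of the 360 miRNAs in this contrast, and 3 members among them. With library totals, upper-quartile factors, a replicate block or the haemolysis index as a covariate, edgeR called 0 of the 360, and it also called 0 with summed precursor rows, with the filter of 10 CPM and without the liver-high libraries.

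Summed over the 6 members, the family level was 119.6 ± 64.5 CPM (SD, n = 5) in old dwarf mice. It was 11.8 ± 2.92 CPM in old normal, 33.5 ± 22.6 CPM in young dwarf and 35.6 ± 17.5 CPM in the young normal group. Old normal libraries ranged from 6.76 to 14.2 CPM and old dwarf libraries from 27.95 to 196.5 CPM, with no overlap. Each member's share of the family's reads was also taken. miR-34c-5p held 63.4% of family reads in old dwarf serum (95% exact Clopper-Pearson interval 60.5 to 66.3, 688 of 1085 reads) and 28.3% in old normal serum (20.5 to 37.3, 34 of 120 reads). In the young groups it held 52.2% (47.7 to 56.7) in normal and 55.7% (50.9 to 60.3) in dwarf serum. miR-34a-5p held 29.2% of the family in old normal serum and 5.99% in old dwarf serum. Over single libraries the share of miR-34c-5p was 60.6 ± 12.7% (SD, n = 5) in old dwarf and 29.3 ± 17.5% in old normal serum. These intervals cover counting error only, and reads without molecular identifiers are not independent molecules.

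Ratios within a library, which need no scaling, were compared over libraries. The log2 ratio of miR-34a-5p to miR-34c-5p was -0.04 ± 1.36 (SD, n = 5) in old normal and -3.45 ± 1.44 in old dwarf serum, a difference of -3.41 (2-sided exact permutation test, p = 0.0159, adjusted over 12 tests 0.0952). The ratio of miR-34b-3p to miR-34c-5p, strands of neighbouring hairpins, was -0.31 ± 0.72 and -2.03 ± 0.97 (difference -1.72, exact p = 0.0238, adjusted 0.0952). The 5p to 3p ratio of mir-34c was 0.87 ± 1.18 and 2.85 ± 0.89 (difference 1.98, exact p = 0.0317, adjusted 0.0952). In young normal serum these ratios were -2.28 ± 1.13, -1.40 ± 0.90 and 1.91 ± 0.78. None of the 12 exact tests passed after adjustment, although 4 had an unadjusted p under 0.05. The low counts of the old normal libraries, where miR-34c-5p had 34 reads in all and miR-34c-3p 16, limit these ratios.

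**Figure D3:**
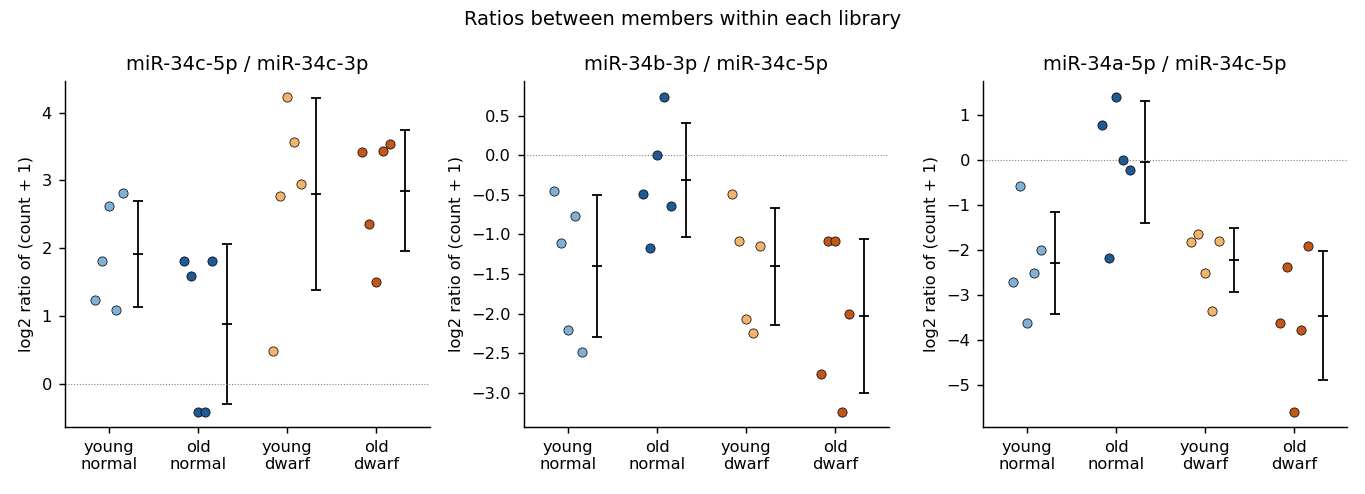
Log2 ratio of reads (1 added to each count) for miR-34c-5p to miR-34c-3p, miR-34b-3p to miR-34c-5p and miR-34a-5p to miR-34c-5p in each library, by group, with the mean ± SD of each group (n = 5). The ratio of miR-34a-5p to miR-34c-5p averaged -0.04 in old normal and -3.45 in old dwarf serum.

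Within groups, miR-34b-3p varied with miR-34c-5p, and the relation of the other members to miR-34c-5p did not pass adjustment. Across the 20 libraries, after the group mean was taken from each log2 CPM, miR-34b-3p followed miR-34c-5p with Pearson r = 0.713 (permutation within groups, p = 0.00196, adjusted over 4 relations 0.00784) and Spearman rho = 0.651 (permutation p = 0.00494, adjusted 0.0198), and r was 0.546 without the 2 libraries farthest from the median of miR-34c-5p. For miR-34c-3p r was 0.495 (permutation p = 0.0407, adjusted 0.0814) and rho 0.519 (permutation p = 0.028, adjusted 0.056), with r = 0.404 without the 2. For miR-34a-5p r was 0.460 (permutation p = 0.0754, adjusted 0.101) and rho 0.287 (permutation p = 0.28, adjusted 0.28), with r = 0.257 without the 2. For miR-449a-5p r was 0.352 (permutation p = 0.181, adjusted 0.181) and rho 0.267 (permutation p = 0.257, adjusted 0.28), with r = 0.189 without the 2. All strands of a library share its depth and scaling. The relation was not computed for miRNAs outside the family, so it is not shown to be particular to these strands.

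The miRNAs most like miR-34c-5p over the 20 libraries were ranked by the mean absolute difference of centred log2 CPM. Among 359 other tested miRNAs, whose median distance was 1.51, miR-34b-3p was the nearest at 0.791, miR-34c-3p was at rank 11 (1.02), miR-449a-5p at rank 24 (1.08) and miR-34a-5p at rank 49 (1.16). The 5 nearest outside the family were miR-224-5p (0.909), miR-127-5p (0.916), miR-409-3p (0.929), miR-341-3p (0.961) and miR-410-3p (0.967). The last 4 come from the imprinted Dlk1-Dio3 region. Between the old groups these 5 were higher in dwarf serum by 2.48, 3.04, 2.48, 2.90 and 3.45 (log2, in that order; edgeR adjusted p from 0.00304 to 0.0235), which the choice by likeness to miR-34c-5p fixes in part. With age in dwarf serum they differed by 0.18, -0.17, -0.56, -0.11 and -0.30 (edgeR adjusted p = 0.997 each). There miR-34c-5p differed by 2.03 (edgeR adjusted p = 0.470, not called) and miR-34c-3p by 2.73 (edgeR adjusted p = 0.0292). Whether these miRNAs and the members differ in their change with age was not tested. The mean level of miR-410-3p, for example, was 128.6 ± 60.7 CPM in young dwarf and 104.9 ± 72.2 CPM in old dwarf serum (SD, n = 5). In old dwarf library 3 miR-34c-5p stood 2.42 above its own mean over the 20 libraries on the log2 scale, miR-34c-3p 2.91 and miR-34b-3p 2.59, whereas miR-341-3p stood at -0.92 and miR-34a-5p at -1.06.

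**Figure D4:**
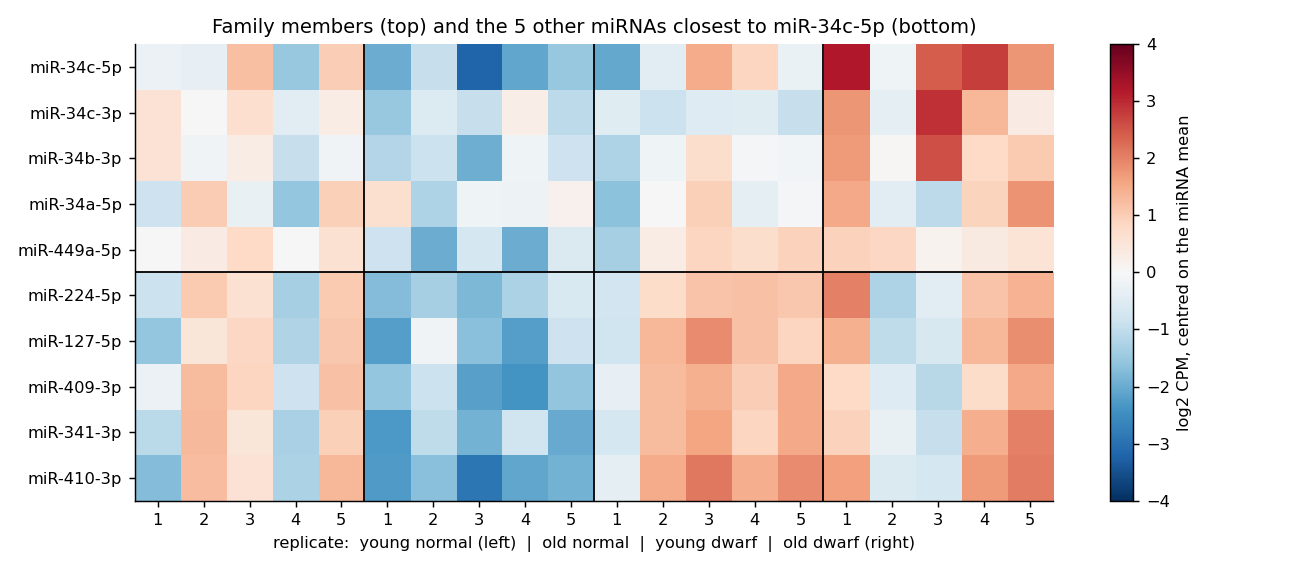
Log2 CPM of the 5 tested members and the 5 most alike other miRNAs in each of the 20 libraries, centred on each miRNA's mean; columns are libraries by group. Old normal columns are low for most of these miRNAs, and the old dwarf column of library 3 is high for the strands of mir-34b and mir-34c and low for miR-34a-5p.

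Other miRNAs whose transcription or processing p53 is known to raise were read beside the family. All 11 listed were tested. The list is not separate from the marker lists, since miR-192-5p is also a liver marker and miR-200c-3p and miR-141-3p are also epithelial markers. Between the old groups 1 was called higher in dwarf serum by edgeR, miR-143-3p, a miRNA of smooth muscle and stroma, with 3412 ± 1565 against 1343 ± 808 CPM (SD, n = 5; log2 1.34 ± 0.46, edgeR adjusted p = 0.0381), and none was called lower. The list median was 0.48, with 9 of 11 above 0, and the median of all tested miRNAs was -0.06. The 1 call among 11 stands beside 16.1% of all tested miRNAs called higher. Whether the list moved as a set was not tested. The next by p were miR-15a-5p (0.54, edgeR adjusted p = 0.0607), miR-16-5p (0.48, 0.0818) and miR-194-5p (0.98, 0.0994), and the first 2 of these are also abundant in red cells. In old against young normal serum 1 of 11 rose, miR-215-5p, from 2783 ± 1209 to 7539 ± 3353 CPM (log2 1.44 ± 0.48, edgeR adjusted p = 0.0475), none fell and the list median was -0.32. Of all tested miRNAs 5.0% were called higher in that comparison. In dwarf serum with age, in young dwarf against young normal serum and in the interaction none of the 11 passed, with medians of 0.01, 0.09 and 0.33.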

How the data were processed

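Small RNA of serum was sequenced in 20 libraries. Per the labels, total RNA was isolated with an miRNeasy kit and the TruSeq small RNA kit was used for the libraries. The deposited table gives raw read counts per mature miRNA, 1 row for each of its precursors, with columns as miRDeep2's quantifier writes them, per the file headers. A second deposited column per library gives RPM, which equals the count over its column sum times 1000000 (largest difference 0.005) and was used in no test. A deposited miRDeep2 report, pooled over all libraries, gives a score and read counts per hairpin. The submitters' processing notes name Bowtie 0.12.8, bedtools, edgeR, GRCm38 and mm10 but no role for any of them. No batch or date is given in the labels used here.

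For a mature name with several precursor rows the row with the highest total was kept, and each member had 1 row. Counts were filtered with filterByExpr by group (minimum count 10), scaled by TMM and fitted with edgeR 4.0.16 (quasi-likelihood, limma 3.58.1, R 4.3.3), with 1 coefficient per group over all 20 libraries, and p-values were adjusted by Benjamini-Hochberg over 360 miRNAs with a threshold of 0.05. SEs are the log2 fold change divided by the root of the F statistic. Ratios were tested by 2-sided exact permutation on log2 counts plus 1. miR-34b-5p was tested by exact permutation on CPM, a test added after the data were seen. The fits were tested on simulated data. Alternatives were library totals, upper-quartile factors, DESeq2 1.42.0, other filters, summed precursor rows, the compared groups alone, a replicate block, the haemolysis index as a covariate, and leaving out libraries. All members were named, with the 5 non-members most like miR-34c-5p and up to 4 of the p53 list by p. The members, the lists and the tests were chosen with earlier results of these data known.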

Additional observations from a re-analysis of the deposited data

Results flagged for a closer look

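The level of miR-34b-5p in old dwarf library 1 was 9.69 CPM, against 0.358 to 2.73 CPM in the other 4 libraries of that group. Its gap to the nearest was 0.746 of the group's range, above Dixon's critical value of 0.71 for 5 samples. It was the 1 case past that value among 35 sets of 5 libraries (members and ratios, by group), and chance gives about 1 in 20.

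The change with age passed the test of a difference between genotypes for both strands of mir-34c. For miR-34c-3p the dwarf minus normal difference was 3.93 (log2, edgeR adjusted p = 0.0472), and for miR-34c-5p it was 4.42 (edgeR adjusted p = 0.0472). Both calls were lost in most fits without 1 library (16 and 17 of 20), and with library totals, upper-quartile factors, the replicate block (adjusted p = 0.150 and 0.213) and the haemolysis index (0.275 and 0.419).

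The pooled hairpin report lists a candidate on the strand opposite Mir34b, with 4 reads over all libraries. Its miRDeep2 score was 1.3 and its true-positive estimate 17%, all the authors' own values. It lies at chr9:51103576-51103634 on the plus strand (GRCm38), and its sequence, shown because it carries the seed of the 5p strands (capitals), is uGGCAGUGgaguuagugauugu. The candidate overlaps miR-34b-3p at 20 bases and is its reverse complement there, which opposite strands of the same bases must be. The report pools the libraries, so no group can be given.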

How the results depend on the processing

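Of 1058 alternative values, 890 kept direction and side of the threshold (counts: stayed within 1.5 times), 76 fell short of it, 3 newly passed it, 51 counts moved further and 38 values changed sign. The count of called members in old dwarf against old normal serum was 4, and became 2 with at least 10 CPM in 5 libraries (2 members tested), 1 with the compared groups alone (1 tested), 3 with summed precursor rows (4 tested), 3 without the 4 libraries of highest liver miRNAs (5 tested, miR-449a-5p lost), and 0 with the haemolysis index as a covariate. In old against young normal serum it was 2, and 1 under that filter, with those groups alone and with the replicate block, and 0 with the index; leaving out 1 library gave 0 to 2. In dwarf serum with age it was 1, and 0 with library totals, the 10 CPM filter, summed precursor rows, the compared groups alone, the replicate block, and without the 4 libraries of highest liver miRNAs (added after seeing the data); leaving out 1 library gave 0 to 1. For the interaction it was 2, and 0 with library totals, upper-quartile factors, the 10 CPM filter, summed rows, the block, the index and without the liver-high libraries, and 3 with DESeq2 and with no filter; leaving out 1 library gave 0 to 3. Without the filter 5 members were called between the old groups. Beyond fewer members tested, the cause was not tested. The haemolysis index did not overlap between the old groups, so the fit with it can hardly tell index and group apart.

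Equal replicate numbers did not pair the libraries in every comparison: same-numbered deviations correlated at -0.10 to 0.27 between the old groups (2 of 5 over 0.1), -0.22 to 0.81 between the young (4 of 5), -0.33 to 0.21 with age in normal (1 of 5) and -0.68 to 0.38 in dwarf serum (2 of 5). With the block, 4 members stayed called between the old groups, and miR-34c-3p with age in dwarf serum was at 2.47 (edgeR adjusted p = 0.101); the interaction had adjusted p = 0.150 (miR-34c-3p) and 0.213 (miR-34c-5p).

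Sign changes were in differences near 0. Young dwarf against young normal: miR-34b-3p 0.23 with library totals, miR-34c-5p -0.000308 with the block and -0.34 without the liver-high libraries, miR-449a-5p -0.25 without them. miR-34a-5p with age in normal serum was 0.33 with the index, miR-449a-5p with age in dwarf serum -0.33 with library totals, and the 5p to 3p ratio of mir-34c there -0.018 with 0.5 added. Leaving out 1 library gave, in the young comparison, -0.72 to 0.18 (miR-34a-5p), -0.40 to 0.15 (miR-34b-3p), -0.46 to 0.39 (miR-34c-5p), -0.033 to 0.38 (miR-449a-5p), -0.233 to 0.494 CPM (miR-34b-5p), -0.27 to 0.24 (miR-34b-3p to miR-34c-5p) and -0.27 to 0.49 (miR-34a-5p to miR-34c-5p); with age, -0.50 to 0.17 (miR-34a-5p, normal), -0.14 to 0.28 (miR-449a-5p, dwarf) and -0.53 to 0.41 (mir-34c 5p to 3p, dwarf). The median of all miRNAs was 0.23, 0.18, -0.42 and -0.38 with library totals (old, young, normal, dwarf), against -0.06, -0.04, -0.00 and 0.02 with TMM. Levels under about 1 CPM rest on 1 to 3 reads.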

Other observations

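Other strands and hairpins of the family were nearly absent from serum. miR-449c-5p, which shares the 5p seed, had 24 reads in 13 of the 20 libraries, with 2 reads in old normal serum, 9 in young normal, 6 in old dwarf and 7 in young dwarf serum. miR-34a-3p had 7 reads in 6 libraries, miR-449b had 1 read, and miR-449a-3p and miR-449c-3p had none. In the authors' pooled hairpin report the strands of mir-34c held 1234 and 189 reads, those of mir-34b 334 (3p) and 52 (5p), those of mir-34a 195 and 7, and those of mir-449a 152 and 0.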
